A study of Mus musculus with 2 samples.

Results

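The Nrf2 pathway and glutathione genes described here were 10 genes chosen by name, out of 19537 genes in the deposited tables: Nfe2l2, Keap1, Gclc, Gclm, Nqo1, Txnrd1, Prdx1, Srxn1, Sod2 and Slc7a11. They were followed in microglia sorted from 2 kinds of littermate mice of 3 to 4 months of age, 24 h after an intraperitoneal injection of lipopolysaccharide (LPS, a bacterial cell wall component, 4 µg per g of body weight). KO LPS came from mice homozygous for a gene-trap allele of Park7, the gene of the redox-sensitive protein DJ-1, in a line derived from B6;129P2-Park7Gt(XE726)Byg/Mmucd and backcrossed to C57BL/6NCrl, and WT LPS came from wildtype littermates; the libraries are called the knockout and the wildtype below. All animals of both groups had received LPS. Each group was 1 Drop-seq library (a droplet method that counts 3' transcript ends as unique molecular identifiers, UMIs) of CD11b+CD45int cells from the pooled brains of 2 mice, 1 female and 1 male. Genotype, animals and library therefore cannot be told apart, no test between the groups was possible, and every interval below is a 95% interval that covers counting error only.

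Nrf2, the protein of Nfe2l2, is a transcription factor that is held in the cytoplasm and passed to degradation by Keap1. When oxidants or electrophiles modify cysteines of Keap1, Nrf2 accumulates, enters the nucleus and, paired with a small Maf protein, binds the antioxidant response element of genes for glutathione synthesis, thioredoxin recycling and detoxification. In microglia and macrophages the pathway is known to restrain inflammatory activation, and DJ-1 has been linked to Nrf2 stability. Some of these genes also answer to other signals: Sod2 is a classical target of NF-κB, and Slc7a11 is also driven by ATF4.

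The antioxidant response element core searched for was TGACNNNGC, on both strands, in the 300 bases from 250 before to 50 after each RefSeq gene start (build GRCm38.p6). The promoter table held 9 of the 10 genes, all but Gclc, with 11 promoters between them. The core was found in 5 of these 11 promoters (45.5%), each of a different gene, against 12.4% of all 32851 promoters and 15.5% of the 97 promoters of other genes of the pathway. The stretches around the match are given for the 4 genes in which it lay before the start, because these are letters that the named factor is known to read. The capitals mark the match as it reads on the strand of the gene, so that in Gclm, Txnrd1 and Prdx1 the capitals are the reverse complement of the core.
Nfe2l2, chr2:75704875-75704913, minus strand: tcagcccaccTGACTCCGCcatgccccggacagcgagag
Gclm, chr3:122245403-122245451, plus strand: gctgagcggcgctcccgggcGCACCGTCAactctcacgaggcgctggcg
Txnrd1, the second of its 3 listed starts, chr10:82859094-82859142, plus strand: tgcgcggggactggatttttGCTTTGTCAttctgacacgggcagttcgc
Prdx1, chr4:116685446-116685494, plus strand: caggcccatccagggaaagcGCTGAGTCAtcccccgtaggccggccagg
The match in Prdx1 contained, on its own strand, TGACTCA, the AP-1 motif, which was found in 5.20% of all promoters. Srxn1 held its match after the start. A match is a description of letters in this window and not evidence of binding, and these data hold no measurement of binding.

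Cells were barcodes with at least 500 UMIs and at least 100 genes. The knockout gave 320 such cells with a median of 963.5 UMIs and 381305 UMIs in all, and the wildtype gave 1427 cells with a median of 1065 UMIs and 1989011 UMIs in all, so 3 UMIs were worth 7.87 UMIs per 1e6 (CPM) in the knockout and 1.51 CPM in the wildtype. No cell barcode was shared between the libraries. Park7 itself was at 1 UMI (2.62 CPM) in the knockout and 323 UMIs (162 CPM) in the wildtype. All 12 microglia markers were detected in both libraries, with a summed level of 32446 CPM in the knockout and 19529 CPM in the wildtype. Of the 12, 11 were higher in the knockout, with a highest ratio of 9.46 (8.67 to 10.3) for P2ry12, while C1qa was lower, at 0.536 (0.503 to 0.571). A list of 29 inflammatory genes summed to 844 CPM in the knockout and 11815 CPM in the wildtype, a ratio of 0.0715 (0.0638 to 0.0798). Choroid plexus markers were at 2119 CPM in the knockout and 14.6 CPM in the wildtype, astrocyte markers at 370 and 173 CPM with Aqp4 at 0 UMIs in both, endothelial markers at 89.2 and 16.1 CPM, and neutrophil markers at 0 and 68.4 CPM. Border macrophage markers were at 62.9 and 35.7 CPM, with Pf4, Cd163, Lyve1 and F13a1 at 0 UMIs in the knockout, and neuron markers were at 23.6 and 8.55 CPM. The part of these differences in the results below was not tested, but leaving out the 13 knockout and 26 wildtype cells with at least 3 UMIs of another cell type gave log2 ratios of 1.00 for Gclc, -1.36 for Txnrd1, -1.20 for Prdx1 and -2.69 for Sod2.

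The transcripts of the 10 genes were fewer in the knockout, and Txnrd1, Prdx1 and Sod2 had lower ratios than the regulators Nfe2l2 and Keap1. Summed over the 10 genes, the knockout held 277 UMIs (726 CPM) and the wildtype 2547 UMIs (1281 CPM), a ratio of 0.567 (0.499 to 0.642). Nfe2l2 supplied 142 of the 277 UMIs, and without it the other 9 genes summed to 354 CPM in the knockout and 769 CPM in the wildtype, a ratio of 0.461 (0.383 to 0.549). Counting the 2 libraries together, 8 of the genes reached 20 UMIs, and 4 of them were at least 1.5-fold lower in the knockout (Txnrd1, Prdx1, Sod2 and Slc7a11), where 28.0% of the 9085 genes measured at this depth were. Gclc alone was at least 1.5-fold higher, where 25.0% of all genes were. The counting interval of the ratio lay below 1 for 5 genes, the same 4 and Nfe2l2 (18.7% of all genes), above 1 for Gclc (19.6%), and spanned 1 for Keap1 and Gclm (61.8%). The median knockout-to-wildtype log2 ratio was -0.84 over the 8 genes and 0.03 over all 9085.

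**Figure D1:**
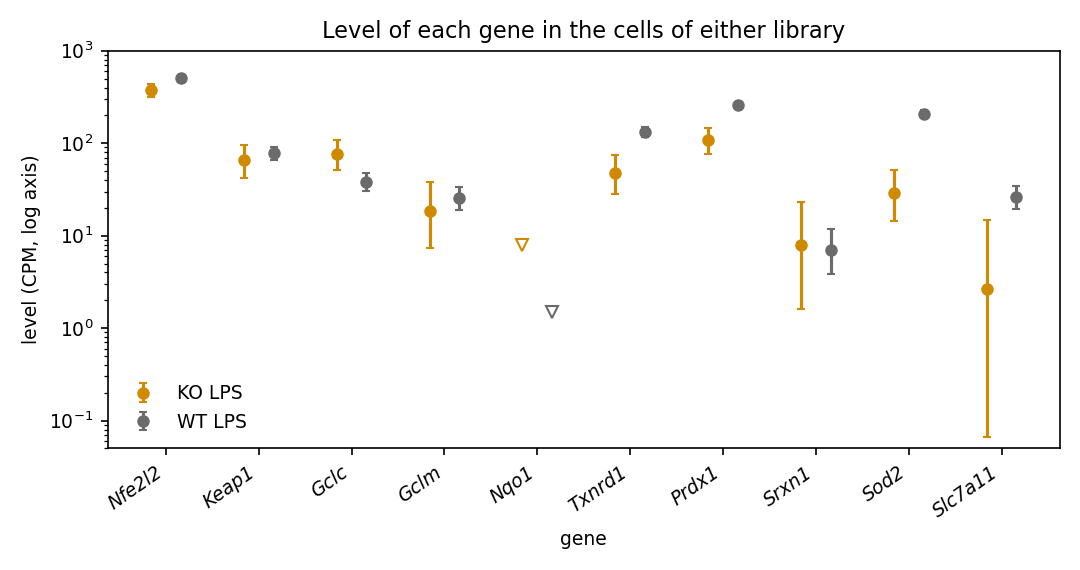
Level of each of the 10 genes in knockout and wildtype cells, in UMIs per 1e6 on a log axis; points are the 1 library of each genotype and bars are exact Poisson 95% intervals, with triangles for Nqo1 at the level that 3 UMIs would give. Sod2 is at 28.8 CPM in the knockout and 206 CPM in the wildtype with a wide gap between the intervals, and Gclc, at 76.1 and 38.2 CPM, has its knockout interval above that of the wildtype.

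Among the regulators, Nfe2l2 was the most abundant of the 10 genes in both libraries. It gave 142 UMIs in the knockout, 372 CPM (314 to 439), and 1018 UMIs in the wildtype, 512 CPM (481 to 544). The ratio of 0.728 (0.606 to 0.868) was under 1 beyond counting error but short of the 1.5-fold limit. Keap1, the adaptor that presents Nrf2 for ubiquitination, was at 65.6 CPM (42.4 to 96.8) in the knockout and 78.4 CPM (66.6 to 91.7) in the wildtype, and its ratio of 0.836 had an interval of 0.525 to 1.28. By these ratios, the levels of both regulators were closer between the libraries than those of Txnrd1, Prdx1 and Sod2. The intervals of Txnrd1 and Prdx1, each up to 0.578, still overlapped that of Keap1.

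Glutathione is built from cysteine, which enters the cell as cystine through the exchanger encoded by Slc7a11, and its first step is run by glutamate-cysteine ligase, with Gclc as the catalytic and Gclm as the modifier subunit. Gclc was at 29 UMIs in the knockout, 76.1 CPM (50.9 to 109), against 76 UMIs in the wildtype, 38.2 CPM (30.1 to 47.8). Its ratio of 1.99 (1.25 to 3.09) exceeded that of 86.7% of all genes. Gclm, the partner subunit, was at 7 UMIs in the knockout, 18.4 CPM (7.38 to 37.8), and 51 UMIs in the wildtype, 25.6 CPM (19.1 to 33.7), a ratio of 0.716 (0.274 to 1.58). The catalytic subunit was thus higher in the knockout while the modifier subunit was not distinguishable at this depth. Slc7a11 was seen in 1 UMI of 1 cell in the knockout, 2.62 CPM (0.0664 to 14.6), and in 52 UMIs of 43 cells in the wildtype, 26.1 CPM (19.5 to 34.3), a ratio of 0.100 (0.00249 to 0.584).

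In the thioredoxin branch, Txnrd1 codes for the cytosolic thioredoxin reductase, Prdx1 for a peroxidase that thioredoxin recharges, and Srxn1 for sulfiredoxin, which restores overoxidised peroxiredoxins. Txnrd1 was at 18 UMIs in the knockout, 47.2 CPM (28.0 to 74.6), and 262 UMIs in the wildtype, 132 CPM (116 to 149), a ratio of 0.358 (0.209 to 0.578). Prdx1 was at 41 UMIs in the knockout, 108 CPM (77.2 to 146), and 509 UMIs in the wildtype, 256 CPM (234 to 279), a ratio of 0.420 (0.298 to 0.578). Both were lower in the knockout, with intervals that did not overlap. Srxn1 was too sparse to compare, with 3 UMIs from a single cell in the knockout and 14 UMIs from 14 cells in the wildtype.

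Sod2, the mitochondrial manganese superoxide dismutase, had the lowest ratio of the genes with over 10 UMIs in each library. It gave 11 UMIs in 9 knockout cells, 28.8 CPM (14.4 to 51.6), and 409 UMIs in 279 wildtype cells, 206 CPM (186 to 227). The ratio was 0.140 (0.0695 to 0.254), a 7.13-fold lower level, and 2.54% of all genes had a lower ratio. Nqo1, the quinone reductase often used as a readout of Nrf2, carried missing values in both tables, which were read as 0 UMIs; a count of 0 allows up to 7.87 CPM in the knockout and 1.51 CPM in the wildtype, so that no order could be given.

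**Figure D2:**
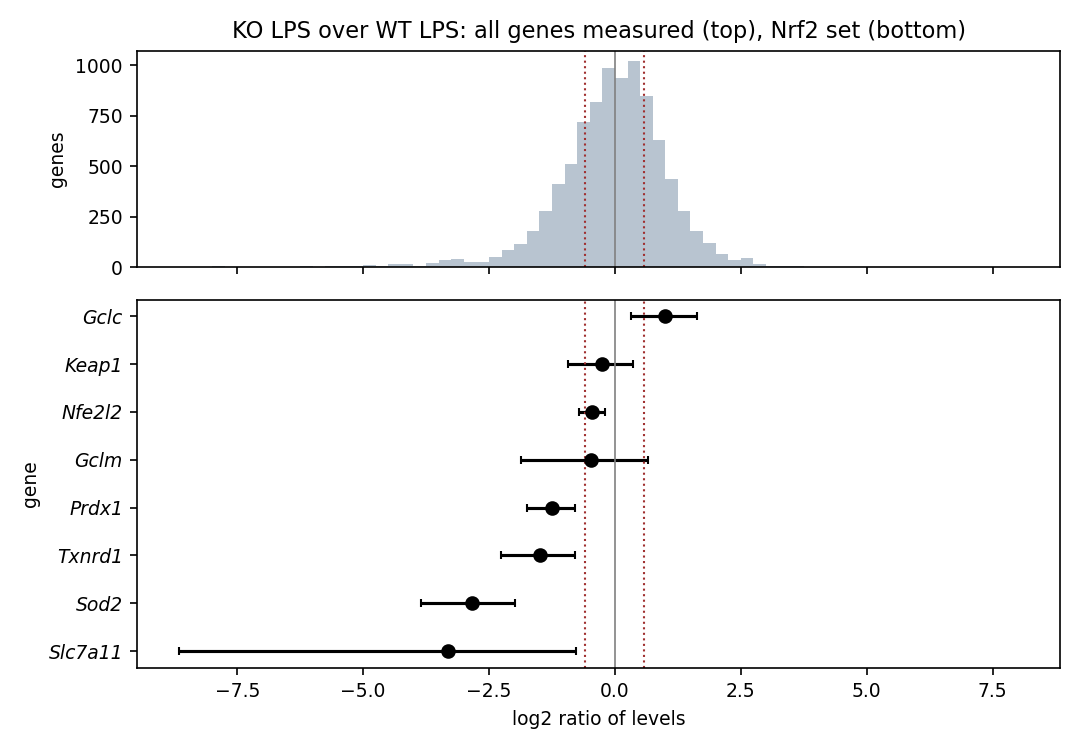
Knockout-to-wildtype log2 ratio, for all 9085 genes with at least 20 UMIs as a histogram and for the Nrf2 pathway and glutathione genes as points with exact conditional binomial 95% intervals. Points are the ratio itself and the histogram uses a prior count of 0.5, the dotted lines mark 1.5-fold, and Sod2 (ratio 0.140) and Slc7a11 (0.100) lie in the lower tail of all genes while Gclc (1.99) lies in the upper part.

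RefSeq places transcripts of other genes over Gclm, Txnrd1 and Prdx1 and lists a pseudogene of Prdx1 elsewhere, and the strand setting of the counting is not given in the sources used here, so counts of these 3 genes are less certain than those of the rest. The loci are Nfe2l2 at chr2:75675513-75704663, Keap1 at chr9:21229730-21239332, Gclc at chr9:77754535-77794489, Gclm at chr3:122245487-122267215, Nqo1 at chr8:107388225-107403205, Txnrd1 at chr10:82833951-82897724, Prdx1 at chr4:116685599-116700000, Srxn1 at chr2:152105524-152111376, Sod2 at chr17:13007839-13018119 and Slc7a11 at chr3:50364936-50499087, all in GRCm38.p6.

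Shares of cells with a UMI were compared after every cell had been thinned to 500 UMIs. Sod2 was seen in 0.938% of knockout cells (0.194 to 2.72) and 8.69% of wildtype cells (7.28 to 10.3), and Prdx1 in 2.5% (1.09 to 4.87) and 9.88% (8.38 to 11.6). RNA outside cells was read from barcodes with at most 100 UMIs: 500 UMIs drawn from it would show Sod2 in 1.00% of draws in the knockout and 3.58% in the wildtype, and Prdx1 in 2.48% and 4.34%. The wildtype shares of both genes were thus above the level of RNA outside cells, and the knockout shares were not separated from it at this depth. Txnrd1 was seen in 1.56% of knockout cells (0.509 to 3.61) and 6.03% of wildtype cells (4.85 to 7.39). RNA outside cells would give 1.5% and 6.43%, so neither share was separated from the outside level. Keap1 was seen in 3.13% of knockout and 3.99% of wildtype cells (3.04 to 5.14 in the wildtype) against 2.48% and 2.81% from RNA outside cells, and Gclm in 1.25% and 1.40% (0.858 to 2.16 in the wildtype) against 1.5% and 0.789%. The wildtype share of Slc7a11 was likewise not above the outside level, at 1.19% against 2.35%. Neither share of Nfe2l2 was above it, at 15.9% and 19.9% of cells against 20.3% and 21.6%. The 12 microglia markers summed to 30072 CPM in the barcodes with at most 100 UMIs of the knockout and 12386.5 CPM in those of the wildtype. A share at the outside level therefore does not show that the cells lack the transcript. Gclc was seen in 4.06% of knockout cells (2.18 to 6.85) against 3.70% from RNA outside cells, and in 1.96% of wildtype cells (1.31 to 2.82) against 0.789%. Without thinning, the shares in the knockout and the wildtype were 28.4% and 41.9% for Nfe2l2, 8.13% and 4.77% for Gclc, 5.31% and 15.5% for Txnrd1, 10.3% and 25.1% for Prdx1, and 2.81% and 19.6% for Sod2.

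**Figure D3:**
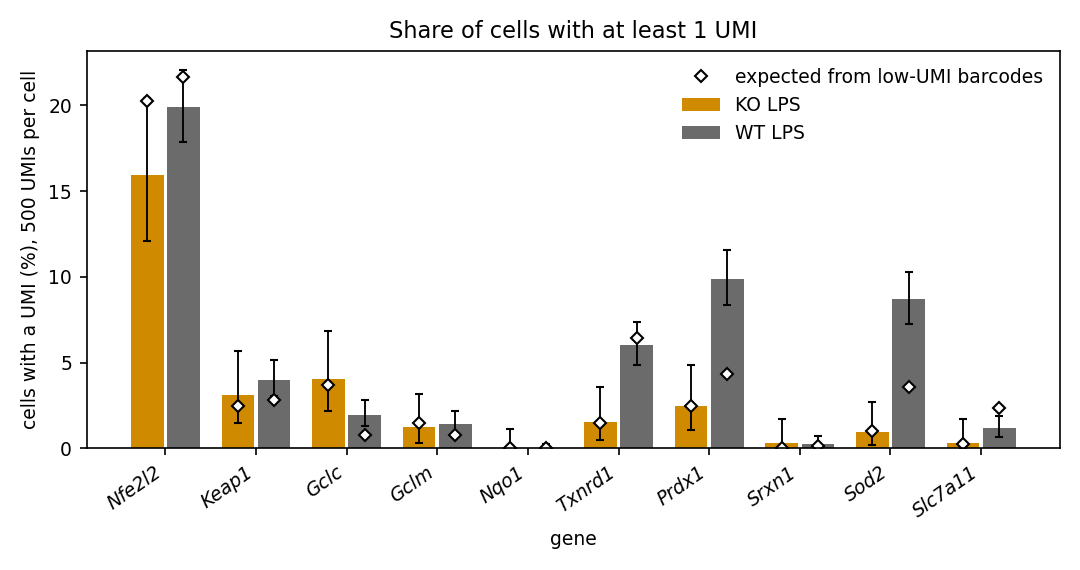
Percent of cells with at least 1 UMI of each gene after thinning to 500 UMIs, in the knockout and the wildtype, with exact Clopper-Pearson 95% intervals and the share that RNA outside cells would give. Sod2 at 8.69% and Prdx1 at 9.88% of wildtype cells stand above their outside level, whereas Txnrd1 and Nfe2l2 do not.

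The RNA outside cells differed between the libraries in the same directions as the cells for several of the genes. In barcodes with at most 100 UMIs, the knockout-to-wildtype ratio was 0.227 (0.0789 to 0.537) for Txnrd1, 0.276 (0.0695 to 0.809) for Sod2, 0.106 (0.00252 to 0.689) for Slc7a11 and 4.77 (1.65 to 16.8) for Gclc. Within the wildtype, cells exceeded these barcodes 2.82-fold (1.86 to 4.50) for Sod2 and 2.89-fold (1.97 to 4.39) for Prdx1, while Txnrd1 was at 0.990 (0.713 to 1.41) and Slc7a11 at 0.550 (0.305 to 1.05). Within the knockout, Prdx1 in cells was 2.14-fold (1.05 to 4.78) its outside level and Gclc was at 1.01 (0.523 to 2.02). In level, Sod2 and Prdx1 were the genes whose wildtype interval of cells over outside lay above 1, while by share of wildtype cells at 500 UMIs the intervals of Gclc, Keap1 and Gclm also lay above their outside level. These share intervals leave out the counting error of the outside level, which rested on 5 UMIs for Gclc, 18 for Keap1 and 5 for Gclm. At 1000 UMIs the share interval of Gclc still lay above the outside level, at 3.77% (2.54 to 5.36) against 1.57%. That of Keap1 did not, at 6.62% (4.97 to 8.62) against 5.54%, nor did that of Gclm, at 1.82% (0.997 to 3.03) against 1.57%. Whether the RNA outside cells set the differences between the libraries was not tested for any of the genes.

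The genes also differed among the wildtype cells. These cells were ordered by their UMIs of the inflammatory list, which holds none of the 10 genes, and divided into 3 classes of 476, 476 and 475 cells. The classes are ranges of a score and not cell types: 218 cells had the score of the first boundary and 115 that of the second. Median UMIs per cell were 942.5, 1096.5 and 1202 from the low to the high class, and neutrophil markers were at 27.8, 32.0 and 135 CPM and border macrophage markers at 15.6, 40.7 and 46.9 CPM. Cells with Xist and no Y-linked UMIs numbered 140, 197 and 228, and those with Y-linked and no Xist UMIs 86, 67 and 42. The part of these differences was not tested. Sod2 was at 116 CPM in the low, 135 CPM in the middle and 343 CPM in the high class, a ratio of high over low of 2.95 (2.24 to 3.92). Slc7a11 was at 8.69, 30.5 and 35.8 CPM, a ratio of 4.13 (1.56 to 13.8). Both were higher in the high than in the low class. Prdx1 and Txnrd1 had smaller ratios of 1.33 (1.06 to 1.68) and 1.38 (1.003 to 1.90). With 2 classes instead, of cells with at most 1 and with at least 2 inflammatory UMIs, the ratio was 2.10 (1.49 to 3.02) for Sod2 and 1.59 (1.21 to 2.12) for Prdx1, but 2.50 (0.916 to 9.55) for Slc7a11 and 1.16 (0.823 to 1.66) for Txnrd1, so that the intervals of these 2 genes then spanned 1. Nfe2l2 at 1.16 (0.992 to 1.36), Keap1 at 1.32 (0.866 to 2.02), Gclc at 0.721 (0.374 to 1.39) and Gclm at 0.546 (0.229 to 1.25) could not be separated from 1. Of the 8 genes measured, 2 were at least 1.5-fold higher in the high class, where 10.1% of all genes were, and Gclm alone was at least 1.5-fold lower, where 13.7% were.

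Knockout cells had few inflammatory UMIs: 222 of the 320 cells (69.4%) had none at 500 UMIs, against 103 cells (7.22%) of the wildtype, and 314 (98.1%) lay within the range of the low wildtype class. The median score was 0 in the knockout and 1 in that class, so the 2 were not matched in score. Set against that class alone, the knockout-to-wildtype ratio was 0.248 (0.118 to 0.472) for Sod2, 0.425 (0.237 to 0.725) for Txnrd1, 0.495 (0.339 to 0.710) for Prdx1, 0.777 (0.630 to 0.954) for Nfe2l2 and 1.99 (1.10 to 3.63) for Gclc. Against the wildtype cells with at most 1 inflammatory UMI it was 0.268 (0.123 to 0.536) for Sod2, 0.405 (0.219 to 0.723) for Txnrd1 and 0.625 (0.409 to 0.947) for Prdx1. In that comparison Nfe2l2 was at 0.779 (0.618 to 0.981) and Gclc at 1.54 (0.816 to 2.98). Sod2 was thus 2.95-fold apart between classes within the wildtype and was 28.8 CPM in the knockout against 116 CPM in the low class. Slc7a11, at 1 UMI against 5, gave 0.302 (0.00638 to 2.70) and could not be separated. Of 7 genes measured here, Gclm, Txnrd1, Prdx1 and Sod2 were at least 1.5-fold lower, where 24.5% of all genes were, and Gclc was higher, where 24.0% were.

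**Figure D4:**
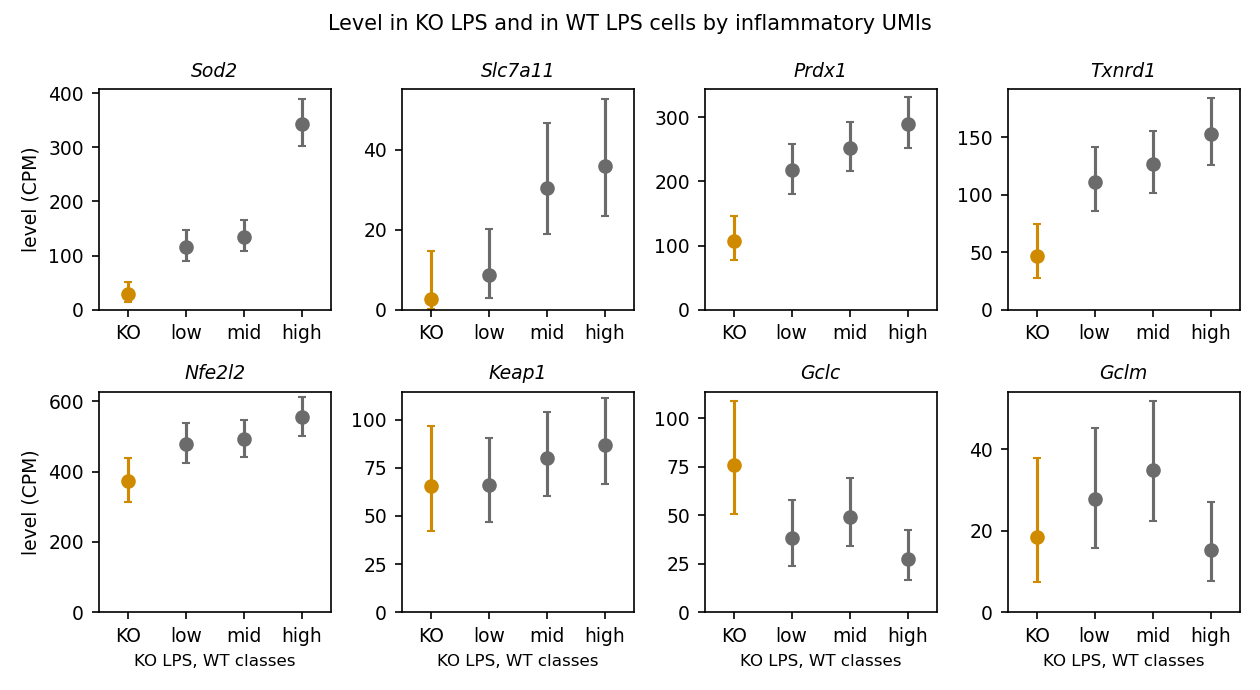
Level in UMIs per 1e6 of the Nrf2 pathway and glutathione genes in the 3 inflammatory classes of wildtype cells and in knockout cells, with exact Poisson 95% intervals. Sod2 is at 343 CPM in the high class of the wildtype, 116 CPM in the low class and 28.8 CPM in the knockout, while Gclc is highest in the knockout.

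Each library mixed a female and a male mouse, and the cells with Xist and without Y-linked UMIs numbered 200 in the knockout and 565 in the wildtype. In these cells the ratio was 0.156 (0.0737 to 0.293) for Sod2, 0.318 (0.169 to 0.551) for Txnrd1, 0.433 (0.283 to 0.641) for Prdx1, 0.0914 (0.00225 to 0.545) for Slc7a11 and 2.54 (1.29 to 4.97) for Gclc, on the same side of 1 as over all cells. Cells with Y-linked and no Xist UMIs numbered 12 in the knockout and 195 in the wildtype, so the libraries also differed in the mix of the sexes. There Gclc was at 3 against 10 UMIs, a ratio of 6.39 (1.13 to 24.8), and Nfe2l2 at 1 against 179, a ratio of 0.119 (0.00299 to 0.671), while Prdx1 at 1 against 107 UMIs, Txnrd1 at 0 against 29 and Sod2 at 0 against 48 had intervals that spanned 1.

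Across the wildtype cells, the only pair to reach a Pearson r of 0.2 was Sod2 with Fth1, the heavy chain of the iron store ferritin, at 0.222 over 1427 cells. After thinning to 500 UMIs it fell to 0.154, below Sod2 with AW112010 at 0.163, so the pair is no more than a weak description of cells that share 1 library and differ in depth.

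The other genes of the pathway were taken as 89 genes in 8 lists, of which 69 had at least 20 UMIs. Of these, 34 (49.3%) were at least 1.5-fold lower in the knockout and 12 (17.4%) were at least 1.5-fold higher, with a median log2 ratio of -0.41, against 28.0% and 25.0% of all genes. The counting interval of the ratio lay below 1 for 24 of the 69 genes and above 1 for 8, where 18.7% and 19.6% of all genes did. Among the 9 regulators of Nrf2 the calls were balanced: Rbx1, part of the ubiquitin ligase that Keap1 serves, at 0.500 (0.321 to 0.750) and Nfe2l1, the related factor Nrf1, at 0.564 (0.426 to 0.736) were lower. Gsk3b, a kinase that marks Nrf2 for degradation, at 1.91 (1.44 to 2.50) and Btrc, named after its value was seen, at 3.65 (1.71 to 7.60) were higher, both by at least 1.5-fold. Cul3, the scaffold of the Keap1 ligase, had a ratio of 1.34 (0.941 to 1.88).

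The lists of glutathione and thioredoxin genes held mostly lower ratios. Of 5 genes of glutathione synthesis and supply, 4 were at least 1.5-fold lower: the glutamine transporter Slc1a5 had 0 UMIs in the knockout against 84 in the wildtype, at least 5.37-fold lower at the floor of 3 counts, and Slc3a2, the partner chain of the cystine exchanger, was at 0.531 (0.405 to 0.687), with Ggct and Gss, named after their values were seen, at 0.348 (0.0691 to 1.08) and 0.522 (0.0591 to 2.15). Of 15 genes of glutathione use, 7 were lower and 3 higher, among them glutaredoxin Glrx at 0.0855 (0.0102 to 0.316), glutathione reductase Gsr at 0.311 (0.0825 to 0.835), and the lipid peroxidase Gpx4 at 1.77 (0.993 to 3.02) and the exporter Abcc1 at 1.59 (0.806 to 2.94). Of 14 thioredoxin and peroxiredoxin genes, 9 were lower and 3 higher: Prdx4 was at 0.213 (0.0251 to 0.811), Msrb1 at 0.241 (0.0769 to 0.581), Msrb2 at 2.01 (1.21 to 3.23), and Txnip, the inhibitor of thioredoxin, was at 157 UMIs (412 CPM) in the knockout and 271 UMIs (136 CPM) in the wildtype, a ratio of 3.02 (2.47 to 3.69). The inhibitor of thioredoxin thus stood above its wildtype level while the reductase Txnrd1 and most peroxiredoxins stood below.

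In the remaining lists, Sod1, the cytosolic superoxide dismutase, was at 0.852 (0.468 to 1.45), and Cat and Ccs, named after their values were seen, were at 2.61 (1.19 to 5.42) and 1.79 (0.815 to 3.65), so that none of the other 3 genes of superoxide and peroxide removal measured was at least 1.5-fold lower. Of 8 genes of NADPH supply, 4 were lower and Idh2 alone was higher, at 1.74 (1.03 to 2.82), with Tkt at 0.374 (0.218 to 0.603), Nadk at 0.514 and Idh1 at 1.48. Of 8 haem, iron and other targets, 4 were lower: Fth1, with 307 UMIs (805 CPM) in the knockout and 8713 UMIs (4381 CPM) in the wildtype, at 0.184 (0.163 to 0.206), and haem oxygenase Hmox1 at 0.373 (0.0981 to 1.01), with Ftl1 and Blvrb, named after their values were seen, at 0.454 and 0.562, while Ugdh at 1.46 and Cbr1 at 1.03 lay between. Of 7 subunits of the phagocyte NADPH oxidase, an enzyme complex that makes superoxide, Cybb was at 1 UMI in the knockout and 677 in the wildtype, a ratio of 0.00771 (0.000195 to 0.0431), Cyba was at 0.507 (0.435 to 0.588) and Rac1 at 1.27. Ferritin chains have many processed copies in the mouse genome, so their counts are less certain.

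**Figure D5:**
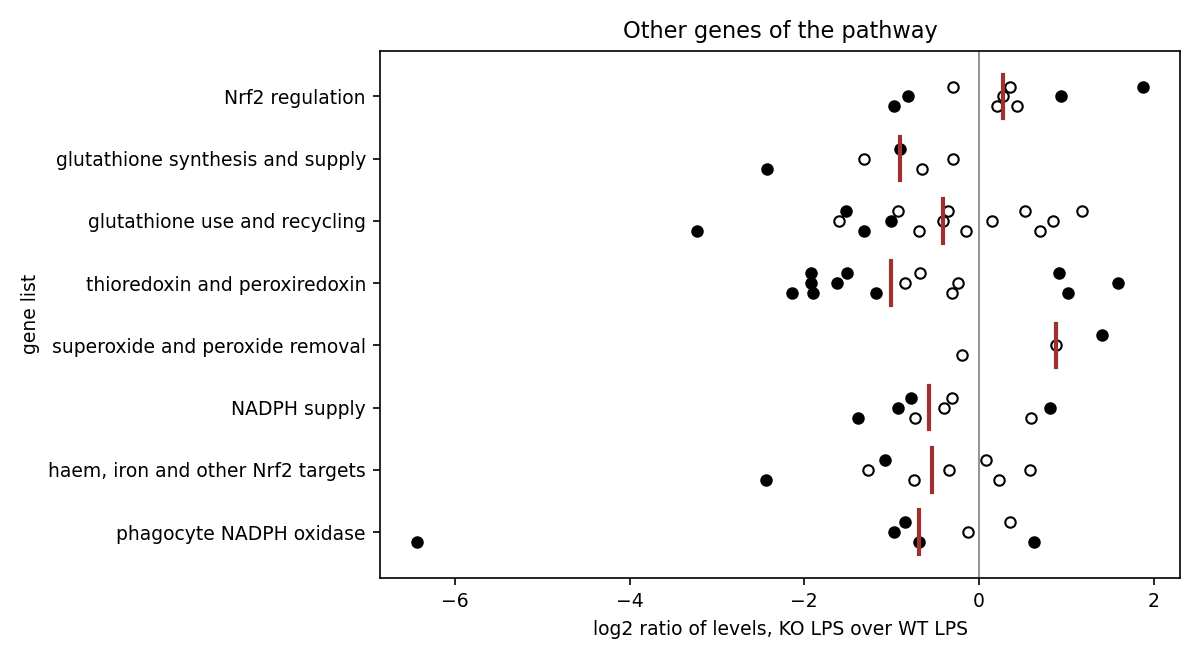
Knockout-to-wildtype log2 ratio for the other genes of the pathway with at least 20 UMIs, by list; each point is 1 gene, filled where the 95% counting interval of its ratio leaves out 1, the bar is the median of the list, and Slc1a5, at 0 UMIs in the knockout, is placed at its bound. Thioredoxin and peroxiredoxin genes lie mostly below 0, with a median of -1.01, and Txnip is a point above it.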

How the data were processed

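The authors deposited, for each of 2 libraries, 1 matrix of raw counts (UMIs per gene and barcode) with 9999 barcodes, not normalised. The submitters' processing notes name bcl2fastq 2.0, STAR, mm9 and mm10; the counting program, annotation and strand setting are not given in the sources used here. Missing values, 5616 genes in KO LPS and 3036 in WT LPS, were read as 0. Cells were barcodes with at least 500 UMIs and 100 genes, which kept 55.7% and 64.9% of all UMIs; the study's cell-calling test was not repeated. Doublets were left in; Scrublet (scanpy 1.11.5) called 19 cells of KO LPS (5.94%) and 5 of WT LPS (0.350%), the latter too few to show that it had worked. UMIs were summed per library and given per 1e6 (CPM), with exact Poisson, conditional binomial or Clopper-Pearson 95% intervals. Log2 ratios used a prior count of 0.5, and a gene at 0 was bounded at 3 counts. With 1 library per genotype no test was made, cells not being replicates. Named genes of the pathway were the 2 highest and 2 lowest ratios per list among genes with at least 50 UMIs, of which 1 is not reported here; likeness needed 300 UMIs and an r of 0.2. The 10 genes and all lists were chosen with earlier results of these data known. Calculations used Python 3.11.15, numpy 2.4.6, scipy 1.17.1 and pandas 2.3.3 and were tested on simulated data. Sequences are from RefSeq (GRCm38.p6).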

Additional observations from a re-analysis of the deposited data

Results flagged for a closer look

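In barcodes with over 100 UMIs that were not cells, which no comparison above used, Keap1 was at 11 UMIs (105 CPM) in the knockout and 34 UMIs (44.8 CPM) in the wildtype, a ratio of 2.35 (1.07 to 4.74), whereas its ratio in cells was 0.836. In the same barcodes Gclc was at 8 UMIs (76.4 CPM) in the knockout and 21 UMIs (27.7 CPM) in the wildtype, a ratio of 2.76 (1.06 to 6.49). Both were singled out because the interval of the ratio, which covers counting error only, lay above 1. In these barcodes Nfe2l2 at 0.537 (0.346 to 0.80) and Txnrd1 at 0.257 (0.0687 to 0.675) had intervals below 1, on the same side as in cells. The intervals of Sod2 at 0.888 (0.311 to 2.07) and Prdx1 at 0.870 (0.383 to 1.74) spanned 1 there, whereas in cells their ratios were 0.140 and 0.420.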

How the results depend on the processing

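No paired analysis was possible because each genotype had 1 library. Under all 16 alternatives the count of the 10 genes at least 1.5-fold lower in KO LPS stayed within 1.5 times of 4. The genes behind the count were not always the same. Against the low WT LPS class they were Gclm, Txnrd1, Prdx1 and Sod2, of 7 measured. In cells with Y-linked and no Xist UMIs they were Nfe2l2, Txnrd1, Prdx1 and Sod2, of 5 measured, and among them only the interval of Nfe2l2 left out 1. The count of the 10 genes called higher was 0 at a limit of 2-fold, which Gclc missed at 1.99. It was also 0 in cells with Y-linked and no Xist UMIs, 12 of them in the knockout, where Gclc had under 20 UMIs. Of the other genes of the pathway, 20 of 69 were lower and 5 higher at a limit of 2-fold, 19 of 28 lower and 1 higher in Y-linked cells, 6 of 54 higher after thinning, 7 of 64 higher without the 3 cells richest in each gene, and 19 of 84 higher with no UMI minimum. The shares of all genes at these settings are not given here, so no departure from all genes is read from these counts. The median log2 ratio of these pathway genes was -1.04 without those richest cells and -0.95 in Y-linked cells, where that of all genes was 0.03 and 0.11. The log2 ratio ranged from -3.54 to -1.96 for Sod2, from -1.90 to -1.21 for Txnrd1 and from 0.65 to 2.83 for Gclc, with no change of direction, and that of Prdx1 was lowest after thinning, at -2.03, while Keap1 ranged from -0.59 to 0.32 and Gclm from -1.32 to 0.12. At 1000 UMIs per cell the share differences of 3 genes turned, to -1.06 percentage points (KO LPS minus WT LPS) for Gclc, 2.16 for Keap1 and 0.209 for Gclm, against the direction of their levels, so no order is read from these shares; the cause was not tested. The alternatives without the cells richest in choroid plexus UMIs and with the low WT LPS class alone were chosen after seeing the data. Depth limits Srxn1, Nqo1, Gclm and Slc7a11 most.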
